A study of Mus musculus with 12 samples.

Results

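Levels of 10 transcripts of the SIAH ubiquitin ligases and of the oxygen sensing pathway were examined in mouse liver, out of 23420 gene symbols in the deposited count tables. The members were taken by symbol: the ligases Siah1a, Siah1b and Siah2, the prolyl hydroxylases Egln1, Egln2 and Egln3, the transcription factor subunits Hif1a and Epas1, and Vhl and Hif1an. All 10 are in the tables and all 10 passed the filter on low counts in each of the 6 comparisons.

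Livers came from 12 C57BL/6 mice in 4 groups of 3: wild type (WT) females, Siah2-/- (KO) females, WT males and KO males. All mice ate normal chow under a 12:12 light-dark cycle and were about 20 weeks old when livers were taken at ZT10, 10 h after lights on. The KO is a germline deletion, so every cell type of the liver carries it, and the WT mice came from a related line. The study's methods describe individual livers while the sample labels speak of RNA pooled from 3 mice, and the description in the methods was used. If samples were not separate mice, the p values would measure only the spread between these libraries.

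In normal oxygen the EGLN enzymes (also called PHD2, PHD1 and PHD3 for Egln1, Egln2 and Egln3) hydroxylate prolines of HIF1A and of the Epas1 product HIF2A. The VHL ubiquitin ligase then marks both for destruction, and Hif1an encodes FIH, an asparagine hydroxylase that blocks their activity. SIAH2 is a RING ubiquitin ligase known to target proteins of the EGLN family, EGLN3 among them, and Egln1 and Egln3 are themselves targets of HIF. Transcript counts as measured here do not show protein levels.

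The upstream sequences of the 3 hydroxylase genes are shown because the differences described below are mostly theirs. RefSeq's promoter table (GRCm38.p6) held 8 of the 10 members, and did not match Siah2 and Epas1. The 250 bases before the annotated start are given 5′ to 3′ on the minus strand, which is the coding strand of all 3 genes. Capitals mark ACGTG or GCGTG, the core letters of the HIF binding motif, read on either strand.
Egln1, chr8:124949255-124949504: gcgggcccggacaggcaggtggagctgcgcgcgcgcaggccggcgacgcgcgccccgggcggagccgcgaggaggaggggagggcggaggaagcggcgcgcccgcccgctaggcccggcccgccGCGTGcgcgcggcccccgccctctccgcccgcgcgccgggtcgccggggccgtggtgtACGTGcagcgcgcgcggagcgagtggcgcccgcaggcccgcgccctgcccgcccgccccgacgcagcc
Egln2, chr7:27166803-27167052: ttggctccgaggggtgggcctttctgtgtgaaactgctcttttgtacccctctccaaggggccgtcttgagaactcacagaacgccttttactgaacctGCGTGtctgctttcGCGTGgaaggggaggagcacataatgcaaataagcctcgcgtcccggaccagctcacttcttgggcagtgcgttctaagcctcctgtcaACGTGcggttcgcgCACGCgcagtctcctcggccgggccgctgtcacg
Egln3, chr12:54203875-54204124: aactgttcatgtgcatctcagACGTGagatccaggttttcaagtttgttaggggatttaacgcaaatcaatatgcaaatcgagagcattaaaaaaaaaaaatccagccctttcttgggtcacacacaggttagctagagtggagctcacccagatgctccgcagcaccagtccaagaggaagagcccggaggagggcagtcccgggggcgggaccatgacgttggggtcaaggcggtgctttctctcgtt

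The Egln1 window holds 2 of these words, the Egln2 window 4 and the Egln3 window 1. A word of either kind is in 38.6% of 32851 windows of this length, so a match is common. RefSeq lists a second Egln2 start, whose window (chr7:27165729-27165978, not shown) holds 1 word and no ACGTG. The stricter ACGTG, in 16.6% of all windows, starts 68 bases before the Egln1 start, 48 before the Egln2 start shown and 229 before that of Egln3. Other members hold these words too: 3 in the window of Hif1a, all ACGTG, 2 in that of Siah1a, and 1 and 4 in those of the Siah1b starts. The windows of Vhl and Hif1an hold neither word. A match of letters is not a binding site, and factor binding was not measured.

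Reads came from QuantSeq 3′ libraries, which give about 1 read per transcript regardless of its length, so levels of different genes are compared here in CPM, edgeR's unit of reads relative to a fixed library total, after TMM scaling. Gene counts summed to 1293688 in the smallest library and 4056144 in the largest. One library stood apart: WT female 1091 had a scaling factor of 0.847, and across 6694 genes its log CPM correlated with the other WT females at r = 0.892 and 0.886, against 0.953 to 0.977 for the other pairs within a group. Values without it are given beside the results for females and for WT females against WT males that are described by gene. Hepatocyte markers summed to between 30994 and 47684 CPM, as the tissue label says. Of 7 red blood cell markers, 5 are in the tables and all but Alas2 had 0 counts. The sample numbers in the library labels run in separate blocks for females and males, so sex and block cannot be told apart.

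Egln2 was the most abundant member, with a mean of 280.1 CPM over the 12 mice, followed by Epas1 at 178 CPM. Hif1an (83.2 CPM) and Egln1 (72.5 CPM) came next, then Siah1a (34.1 CPM), Hif1a (25.4 CPM), Egln3 (20.7 CPM), Vhl (18.9 CPM), Siah2 (14.9 CPM) and Siah1b (4.63 CPM). Some neighbours in this order did not differ beyond their spread. Hif1an exceeded Egln1 in 6 of 12 mice and Egln3 exceeded Vhl in 5 of 12, whereas Epas1 exceeded Hif1an in 12 of 12 and Egln2 exceeded Epas1 in 11 of 12.

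**Figure D1:**
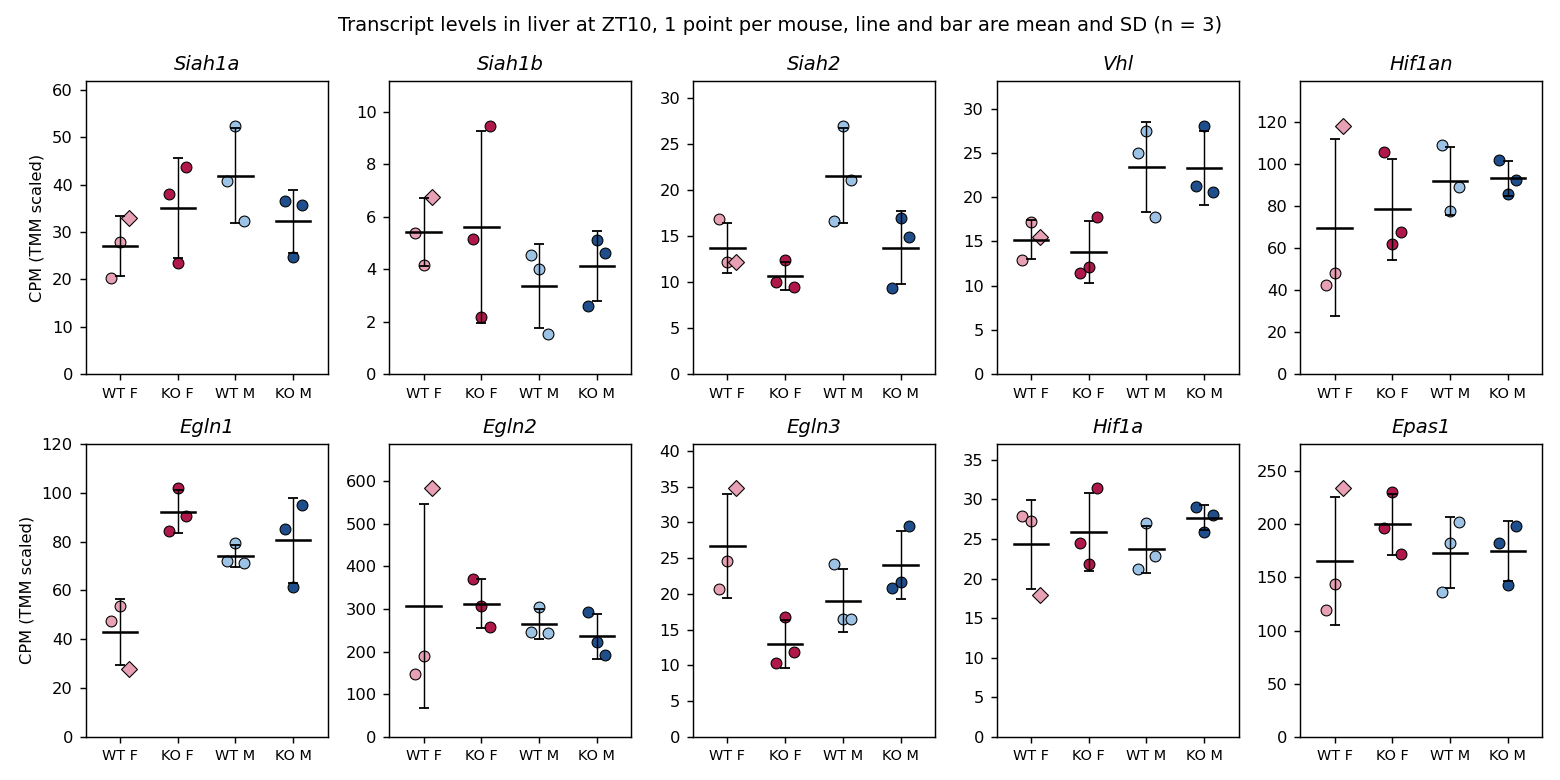
Level of each member in CPM (TMM scaled, linear axes from 0) in WT and KO females (F) and males (M), 1 point per mouse, with lines and bars for the mean and SD of 3 mice and a diamond for WT female 1091. Egln1 and Egln3 are the 2 members in which KO females lie apart from WT females, and 1091 has the highest Egln2 of all mice, at 583 CPM.

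Of the ligases, the deleted gene is described first. Siah2 was at 16.8, 12.2 and 12.1 CPM in WT females and at 10.1, 12.4 and 9.48 CPM in KO females. In males it was at 16.7, 27.0 and 21.1 CPM in WT and at 9.31, 17.0 and 14.9 CPM in KO. The KO means were the lower ones in both sexes, but groups overlapped in each sex, and every KO library held between 16 and 61 Siah2 reads. Its log2 fold change (KO relative to WT) was -0.34 in females (SE 0.30, edgeR adjusted p = 0.641; -0.43 and 0.382 without 1091) and -0.67 in males (SE 0.29, edgeR adjusted p = 0.9999, unadjusted p = 0.0374). No source used here gives the position of the 3′ reads relative to the deleted part, and the genotype labels are therefore not tested by them.

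The paralogs of Siah2 encode related RING ligases with overlapping substrates. Siah1a was at 27.1 ± 6.37 CPM (SD, n = 3) in WT females and 35.1 ± 10.6 CPM in KO females, and at 41.9 ± 10.1 CPM in WT males and 32.3 ± 6.60 CPM in KO males. Its log2 fold change was 0.38 in females (95% interval -0.28 to 1.05) and -0.37 in males (-0.87 to 0.14), with edgeR adjusted p values of 0.591 and 0.9999. Neither passed the test, nor did Siah1a in females without 1091 (0.51, SE 0.28, edgeR adjusted p = 0.282), and the intervals leave room for changes of either sign. Siah1b had only 5 to 20 reads per mouse. Its intervals ran from -1.35 to 1.35 in females and from -0.73 to 1.57 in males, which leaves room for changes of either sign within these bounds. Without 1091 the female value was 0.15 (SE 0.57, edgeR adjusted p = 0.898). Siah1a and Siah1b share 9.86% of the 50-base words of the Siah1a transcript (GENCODE M1). Of the 451 words in its last 500 bases, where QuantSeq reads fall, 0 occur in another protein-coding gene. Of the 451 in the last 500 bases of Siah1b, 2 occur in Siah1a. Noncoding genes and pseudogenes were not searched.

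Among the hydroxylases, Egln1, the main oxygen sensor of the family, set KO females apart from WT females. Its level was 47.6, 53.4 and 27.7 CPM in WT females and 84.5, 102 and 90.6 CPM in KO females. Every KO female was above every WT female, and the lowest value belonged to 1091. The log2 fold change was 1.11 (SE 0.29, 95% interval 0.46 to 1.75), which did not pass the main test (edgeR adjusted p = 0.123, unadjusted p = 0.00331) but did pass DESeq2's (adjusted p = 0.0213). Without 1091 it was 0.86 (SE 0.19) and passed (edgeR adjusted p = 0.0199).

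In males Egln1 was at 71.9, 79.4 and 71.4 CPM in WT and 85.24, 61.21 and 94.997 CPM in KO. These groups overlapped, with a log2 fold change of 0.11 (SE 0.19, edgeR adjusted p = 0.9999). The female change minus the male change was 0.996 (SE 0.35, 95% interval 0.25 to 1.74), with an edgeR adjusted p of 0.202 (0.75 and 0.119 without 1091), so a difference between the sexes in the response of Egln1 was not established. WT females also lay below WT males without overlap, by a log2 fold change of -0.79 (SE 0.28, edgeR adjusted p = 0.219; -0.55 and 0.100 without 1091). KO females and KO males overlapped, with 0.19 (SE 0.18, edgeR adjusted p = 0.566).

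Egln3, the hydroxylase whose transcript is best known for rising in hypoxia, had the opposite pattern in females. It was at 20.7, 24.6 and 34.7 CPM in WT females and at 10.3, 16.8 and 11.8 CPM in KO females. All 3 KO females were below all 3 WT females, of which 1091 was the highest. The log2 fold change was -1.02 (SE 0.31, 95% interval -1.70 to -0.34) with an edgeR adjusted p of 0.160 and a DESeq2 adjusted p of 0.144. Without 1091 it was -0.81 (SE 0.28, edgeR adjusted p = 0.0884), so no call was made either way.

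Egln3 in males was at 24.2, 16.5 and 16.5 CPM in WT and 20.8, 21.7 and 29.5 CPM in KO, and the groups overlapped. The log2 fold change was 0.37 (SE 0.25, edgeR adjusted p = 0.9999), and the female change minus the male change was -1.38 (SE 0.39, 95% interval -2.22 to -0.54, edgeR adjusted p = 0.125). Without 1091 that difference was -1.19 (SE 0.38, edgeR adjusted p = 0.0790). KO females had less Egln3 than KO males, with a log2 fold change of -0.91 (SE 0.26, edgeR adjusted p = 0.0384). This was the 1 member called by edgeR in any of the 6 comparisons as fitted here, and in this comparison 11.5% of 9102 genes were called. Without adjustment, 3 members (Egln2, Egln3 and Vhl) and 26.1% of genes had a p under 0.05. DESeq2 called 0 members and 9.91% of genes (adjusted p = 0.0764 for Egln3), and the edgeR call was lost when KO female 1070 or 1105 or KO male 1076 or 1081 was left out, with adjusted p values up to 0.176.

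Since Egln1 and Egln3 differed in opposite directions in females, their ratio in each library was taken after these values had been seen, as a description that does not depend on scaling. There were 2.29, 2.17 and 0.796 Egln1 reads per Egln3 read in WT females and 8.18, 6.07 and 7.65 in KO females. WT males had 2.97, 4.82 and 4.33 and KO males 4.09, 2.82 and 3.21. The 3 KO females had the highest ratios of all 12 mice and the 3 WT females the lowest, while the male groups overlapped.

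**Figure D2:**
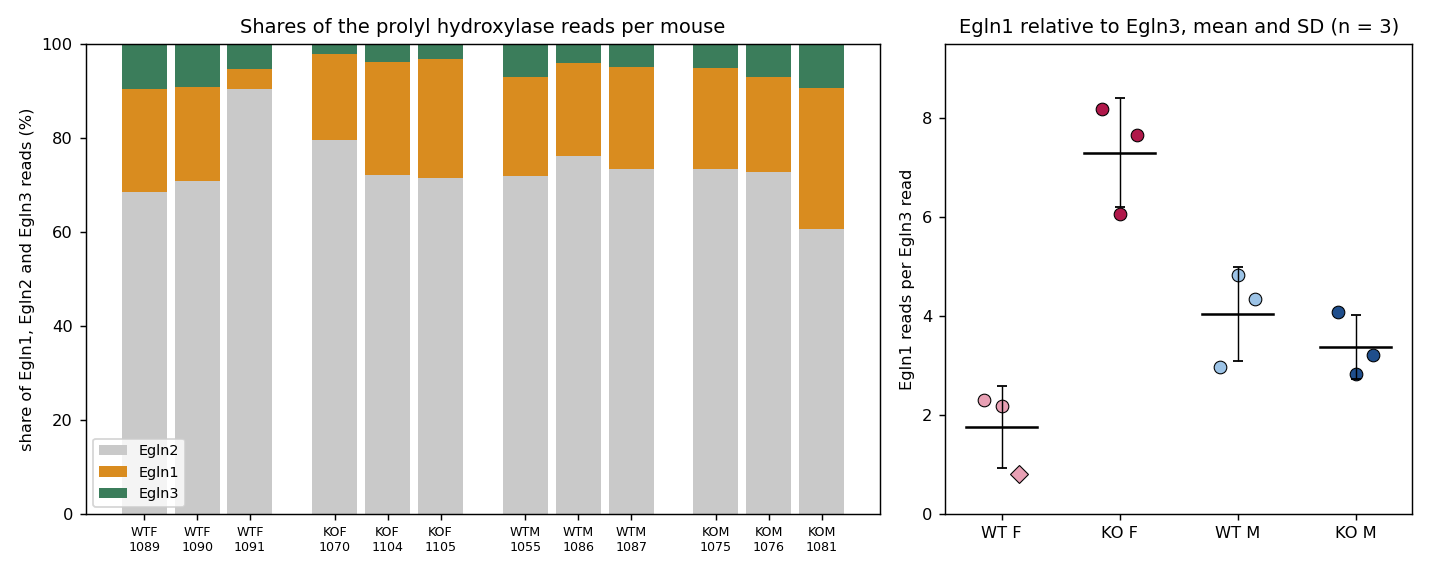
Left, share of Egln1, Egln2 and Egln3 in the summed reads of the 3 genes in each mouse (%), and right, Egln1 reads per Egln3 read with mean and SD of 3 mice and a diamond for WT female 1091. Egln2 makes up 60.6% to 90.3% of the reads, and the ratio lies between 6.07 and 8.18 in KO females and at or below 4.82 in the other groups.

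Egln2, the member with the most reads, depended on a single library. It was at 148, 189 and 583 CPM in WT females, where 583 is 1091, and at 371, 308 and 258 CPM in KO females. The groups overlapped only through 1091, and the log2 fold change was 0.07 (SE 0.44, edgeR adjusted p = 0.965). Without 1091 it was 0.89 (SE 0.21, edgeR adjusted p = 0.0249), where 9.64% of 9709 genes were called, and the difference of its female and male changes was then 1.06 (SE 0.28, edgeR adjusted p = 0.0379), where 5.15% of genes were called. In males it was at 265 ± 34.9 CPM in WT and 236 ± 52.5 CPM in KO (SD, n = 3), with a log2 fold change of -0.18 (SE 0.18, edgeR adjusted p = 0.9999).

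With all mice, neither HIF subunit was called between genotypes in females or in males. Hif1a was at 24.4 ± 5.62 CPM in WT females and 25.9 ± 4.91 CPM in KO females, and at 23.7 ± 2.97 CPM in WT males and 27.7 ± 1.59 CPM in KO males (SD, n = 3). The 95% interval of its log2 fold change was -0.56 to 0.73 in females and -0.24 to 0.67 in males, and without 1091 the female value was -0.11 (SE 0.23, edgeR adjusted p = 0.799). Epas1, the subunit with the higher transcript level in these livers, was at 119, 144 and 234 CPM in WT females and 197, 230.3 and 172 CPM in KO females. Here too the groups overlapped only through 1091, which had the highest value. The log2 fold change was 0.30 (SE 0.27, edgeR adjusted p = 0.649) with 1091 and 0.60 (SE 0.19, edgeR adjusted p = 0.0733) without it. In males the interval was -0.39 to 0.38.

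Vhl, the substrate receptor of the ligase that binds hydroxylated HIF, was called in none of the 6 comparisons by edgeR or DESeq2 with all mice. Its level was 12.9, 17.2 and 15.5 CPM in WT females and 11.4, 12.04 and 17.8 CPM in KO females, against 25.0, 27.5 and 17.7 CPM in WT males and 21.2, 28.1 and 20.5 CPM in KO males. Females lay below males without overlap in both genotypes, although in WT the gap was as small as 17.2 against 17.7 CPM. Over all genes tested, 22.7% did not overlap between the sexes in WT and 30.4% in KO. The log2 fold change of females relative to males was -0.60 in WT (SE 0.29, edgeR adjusted p = 0.362, and 0.237 without 1091) and -0.79 in KO (SE 0.26, edgeR adjusted p = 0.0642). Without KO female 1105 the KO value was -0.995 and was called (edgeR adjusted p = 0.0324), as were 1056 of 9428 genes. Between genotypes the log2 fold change was -0.16 in females (95% interval -0.83 to 0.51, and -0.18 without 1091) and 0.00 in males (-0.54 to 0.54).

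Hif1an was at 42.6, 48.1 and 118 CPM in WT females, with 1091 again the highest, and at 106, 61.7 and 67.5 CPM in KO females. As for Egln2 and Epas1, the groups overlapped only through 1091. The log2 fold change was 0.21 (SE 0.38, edgeR adjusted p = 0.845) with all mice and 0.79 (SE 0.25, edgeR adjusted p = 0.0678) without 1091. In males it was 0.02 (SE 0.17, edgeR adjusted p = 0.9999). WT females against WT males gave -0.40 (SE 0.37, edgeR adjusted p = 0.665), and -1.004 (SE 0.21, edgeR adjusted p = 0.0169) without 1091, where 7.73% of genes were called.

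**Figure D3:**
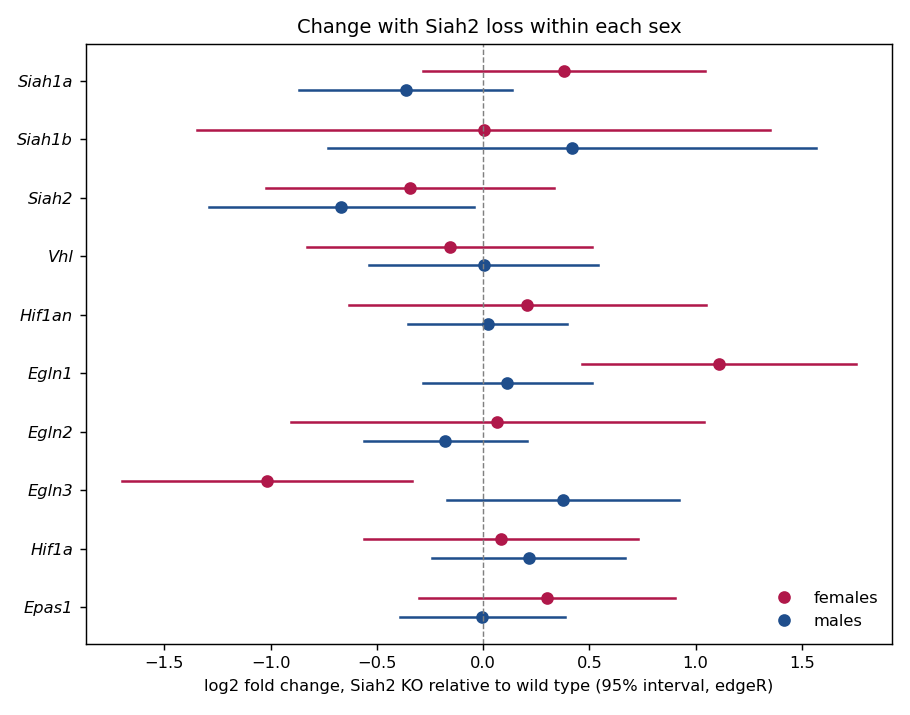
Log2 fold change of each member in KO relative to WT within females and within males, with 95% intervals from edgeR. The intervals of Egln1 (0.46 to 1.75) and Egln3 (-1.70 to -0.34) in females and of Siah2 (-1.29 to -0.04) in males are the 3 that do not include 0.

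Counted over the 10 members, edgeR called 0 in females, with Egln1 and Egln3 at an unadjusted p under 0.05, and DESeq2 called 1. Over all 9465 genes tested in females edgeR called 0 (0%), 15.6% had an unadjusted p under 0.05, DESeq2 called 3.7% of 8185, and the CPM of the groups did not overlap for 23.4%. The 2 of 10 members that did not overlap are thus near the share of all genes. In males edgeR called 0 members and 0% of 8823 genes, an unadjusted p under 0.05 was reached by 1 member and 4.05% of genes, and DESeq2 called 0 members and 0.037% of genes. No member lay apart between male groups, as 8.93% of genes did.

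With both sexes combined, edgeR and DESeq2 called 0 members, against 0.0111% of 9020 genes by edgeR and 0.0056% by DESeq2, and no member lay apart between genotypes, as 0.2% of genes did. An unadjusted p under 0.05 was reached by 2 members and 5.65% of genes. Egln1 (log2 fold change 0.57, SE 0.22) and Siah2 (-0.51, SE 0.24) had unadjusted edgeR p values of 0.0212 and 0.0499. For the female change minus the male change both tools called 0 members, against 0.255% of 9806 genes by edgeR and 3.32% by DESeq2, and Egln1 and Egln3 were among the 14.1% of genes with an unadjusted p under 0.05. In WT females against WT males both called 0 members, against 1.39% of 9335 genes by edgeR and 3.74% by DESeq2, with Egln1 among the 15.2% of genes at an unadjusted p under 0.05. Egln1 and Vhl were the 2 members without overlap there, where 22.7% of all genes had none, and Egln3 and Vhl in KO females against KO males, where 30.4% had none.

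Summed markers of liver cell types lay apart between genotypes for some types in each sex. The summed level of 10 sinusoidal endothelial markers was 411, 425 and 578 CPM in WT females, the last in 1091, and 390 to 394 CPM in KO females. The sum of 8 stellate markers ranged from 386 to 481 CPM in WT and from 276 to 379 CPM in KO females, and that of 8 hepatocyte markers from 44477 to 47684 and from 33124 to 43360 CPM. Female groups did not overlap for any of these 3 sums, nor for Alas2 (20.7 to 24.9 CPM in WT and 8.39 to 19.0 CPM in KO), but they did for 7 Kupffer cell markers (469 to 625 and 346 to 829 CPM) and 5 bile duct markers (10.5 to 44.7 and 17.8 to 44.0 CPM). Male groups did not overlap for endothelial markers (366 to 412 CPM in WT and 311 to 365 CPM in KO) and bile duct markers (46.9 to 55.9 and 27.2 to 35.9 CPM). They overlapped for hepatocyte (31429 to 39426 and 30994 to 35524 CPM), stellate (230.1 to 356 and 262 to 309.9 CPM) and Kupffer cell markers (86.1 to 604 and 101 to 236 CPM) and for Alas2 (83.4 to 104 and 101 to 153 CPM). The endothelial sums of the male groups were as close as 365.6 CPM in WT and 364.7 CPM in KO. Among single genes, 23.4% of those tested did not overlap between genotypes in females and 8.93% in males. The part of the marker sums in the results for Egln1 and Egln3 was not tested. In whole liver, fewer cells of a type and less RNA per cell cannot be told apart.

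Downstream of the sensors, 40 HIF target genes were listed, of which 32 could be tested in females. EdgeR called 0 and DESeq2 called 1 (3.7% of all genes), while 5 of the 32 had an unadjusted p under 0.05, as did 15.6% of all genes. The median log2 fold change was -0.28, against -0.03 over all genes, with 14 values above 0 and 18 below. In males 27 were tested, of which edgeR and DESeq2 called 0 and 5 reached an unadjusted p under 0.05, against 4.05% of all genes, and the median was 0.00 against -0.01.

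Pgk1, a glycolytic enzyme and classical HIF target, had the largest value above 0 in females. It was at 30.4, 31.8 and 20.9 CPM in WT females and at 100.5, 86.5 and 96.5 CPM in KO females, against 36.3, 43.0 and 61.1 CPM in WT males and 44.7, 34.9 and 30.0 CPM in KO males. The female groups were well apart and the male groups overlapped. Its log2 fold change in females was 1.78 (SE 0.26), with an edgeR adjusted p of 0.0793 and a DESeq2 adjusted p of 2.43e-06. Without 1091 it was 1.598 (SE 0.19) and passed (edgeR adjusted p = 0.00214). In males it was -0.40 (SE 0.23, edgeR adjusted p = 0.9999), and the female change minus the male change was 2.16 (SE 0.35, edgeR adjusted p = 0.0460), which passed, as it did without 1091 (1.99, SE 0.31, edgeR adjusted p = 0.00423).

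Among the other HIF targets in females, Hmox1 had a difference near that of Pgk1 in size, and the rest had smaller ones. Ndrg1, a stress response gene, was at 28.6, 24.6 and 27.0 CPM in WT and 15.8, 11.7 and 17.2 CPM in KO females, with no overlap and a log2 fold change of -0.84 (SE 0.26, edgeR adjusted p = 0.181). Trf, which encodes transferrin, had -0.71 (SE 0.28, edgeR adjusted p = 0.257), Tfrc, the transferrin receptor, 0.71 (SE 0.30, edgeR adjusted p = 0.291), and Hmox1, heme oxygenase, -1.75 (SE 0.76, edgeR adjusted p = 0.303) at levels under 9 CPM. None of these passed with all mice. Without 1091 Trf passed (-0.80, SE 0.20, edgeR adjusted p = 0.0280), and Ndrg1 (-0.85, edgeR adjusted p = 0.0550), Tfrc (0.74, edgeR adjusted p = 0.145) and Hmox1 (-2.04, edgeR adjusted p = 0.0930) did not. In males the targets at an unadjusted p under 0.05 included Pfkfb3, a regulator of glycolysis (0.94, SE 0.26), Pdk1, which limits entry of pyruvate into mitochondria (-0.42, SE 0.16), Cited2 (-0.66, SE 0.27) and Tfrc (-0.68, SE 0.30), each with an edgeR adjusted p of 0.9999.

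In KO females against KO males edgeR called 6 of 27 HIF targets and 11.5% of all genes, and DESeq2 called 6 and 9.91%. Pgk1 (1.37, SE 0.19, edgeR adjusted p = 0.000234) and Pdk1 (0.84, SE 0.17, edgeR adjusted p = 0.00667) were higher in KO females. Pfkfb3 (-2.57, SE 0.25, edgeR adjusted p = 7.94e-06), Kdm3a, a histone demethylase (-1.46, SE 0.35, edgeR adjusted p = 0.0143), and Angptl4, an inhibitor of lipoprotein lipase (-0.73, SE 0.18, edgeR adjusted p = 0.0202), were lower. In WT females against WT males edgeR called 0 of 29 and DESeq2 called 1, against 1.39% and 3.74% of all genes, while 4 had an unadjusted p under 0.05, against 15.2%.

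**Figure D4:**
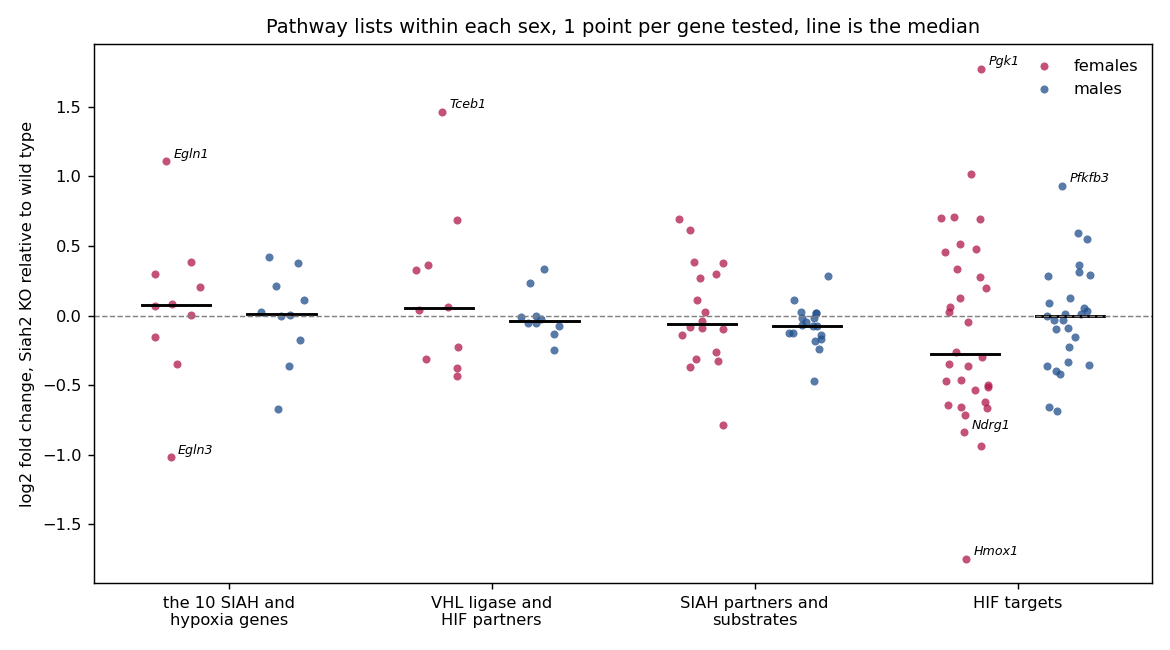
Log2 fold change in KO relative to WT of every tested gene of the 10 members and of 3 pathway lists, in females and in males, with the median of each list as a black line. Medians lie between -0.28 and 0.08, and Pgk1 (1.78) and Hmox1 (-1.75) in females are the outermost points.

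Of 13 genes of the VHL ligase and of HIF partners, 10 were tested in females, with edgeR calling 0, DESeq2 calling 1, and the same gene alone at an unadjusted p under 0.05, against 0%, 3.7% and 15.6% of all genes. That gene was Tceb1, elongin C, which joins VHL to its cullin. It was at 87.3, 63.2 and 30.4 CPM in WT females and at 173, 133 and 193 CPM in KO females, without overlap, and the lowest value was that of 1091. Its log2 fold change was 1.46 (SE 0.37, edgeR adjusted p = 0.119, DESeq2 adjusted p = 0.00614), and 1.14 without 1091 (SE 0.23, edgeR adjusted p = 0.0129). In males it was -0.25 (SE 0.21, edgeR adjusted p = 0.9999), and the female change minus the male change was 1.71 (SE 0.45, edgeR adjusted p = 0.108, DESeq2 adjusted p = 0.0163). Without 1091 that difference was 1.38 (SE 0.32, edgeR adjusted p = 0.0235). Tceb1 was at 110, 165 and 151 CPM in WT males and 157, 105 and 101 CPM in KO males. WT females lay below WT males without overlap, by -1.24 (SE 0.36, edgeR adjusted p = 0.151, DESeq2 adjusted p = 0.0311). Without 1091 this was -0.92 (edgeR adjusted p = 0.0389). In KO females against KO males both tools called 1 gene of this list, Crebbp, a coactivator that binds HIF (-0.68, SE 0.19, edgeR adjusted p = 0.0324), where edgeR called 11.5% of all genes.

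Of 24 partners and substrates of SIAH proteins, 18 were tested in each comparison, and edgeR and DESeq2 called 0 in all of them. In females 1 had an unadjusted p under 0.05, Akap1, a mitochondrial anchor protein, with a log2 fold change of 0.62 (SE 0.25, edgeR adjusted p = 0.265), and in males 0 did. The list's median was -0.06 in females and -0.07 in males.

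The genes whose log CPM followed a member most closely over the 12 mice, among 6694 genes of at least 10 CPM, were Cib3 for Siah2 (Pearson r = 0.89), Tspan31 for Egln1 (0.97), Psap for Egln2 (0.96) and Tada1 for Egln3 (0.93). For the others they were Pon2 for Siah1a (0.84), Arhgap21 for Hif1a (0.90), Stard5 for Epas1 (0.90), Eif5 for Vhl (0.93) and Arpp19 for Hif1an (0.94). These are the highest of many correlations over mice that share group, block of sample numbers and, in 1091, a library that stood apart, and they are given as a description. Between members the highest were 0.73 for Egln2 with Epas1 and 0.66 for Egln2 with Hif1an, genes in which 1091 had the highest value, and the lowest were -0.62 for Egln2 with Hif1a and -0.58 for Egln1 with Egln3.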

How the data were processed

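QuantSeq 3′ libraries (Lexogen) were made from the livers of 12 mice. Reads were trimmed, mapped and counted by the authors in BaseSpace (Illumina). The authors deposited the raw counts per gene, 1 table per sex, with no normalization. The submitters' processing notes name STAR, DESeq and mm10. Neither the annotation nor the strand setting of the counting is given in these sources, so reads of Siah1a, Egln1 and Hif1a cannot be told apart from those of lncRNAs that overlap them in RefSeq (Gm10638, Gm46060 and Gm15283). Of the symbols, 25 had been turned into dates, 2 of them listed 2 times. They stayed in the totals, of which they held 0.228% to 0.272%. Rn45s, the ribosomal RNA precursor, took 5.68% to 17.9% of the counts.

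Each comparison used edgeR 4.0.16 in R 4.3.3 (filterByExpr, TMM, quasi-likelihood F test, two-sided) with Benjamini-Hochberg adjustment over all genes tested and a threshold of 0.05. Every edgeR adjusted p in the text is from this test. Standard errors are those implied by the F statistic. Levels are CPM with TMM factors over all 12 mice, and log CPM used a prior count of 3. DESeq2 1.42.0, the tool the study used, and limma 3.58.1 (limma-voom) were alternatives, and figures used Python 3.11.15 with matplotlib 3.10.9. The scripts were tested on simulated data.

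The first edgeR fit kept each library's full total as its size. The main fit was changed to totals recomputed after the filter after both results had been seen and set beside earlier results of these data, with which the recomputed totals gave equal counts, and the closing section gives the values of the first. The members and gene lists were chosen with earlier results of these data known. Of the lists, the text names the genes that edgeR or DESeq2 called, apart from 1 that is not reported here, and up to 5 with the smallest unadjusted p under 0.05 in the comparisons of genotypes. Of the genes that this rule covers, those described with their values in each mouse were picked after those values had been seen, and so was the ratio of Egln1 to Egln3. Likeness used the 3 closest genes per member of at least 10 CPM, of which the closest is named. Intervals cover the spread between these mice, and reads carried no molecular identifiers.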

Additional observations from a re-analysis of the deposited data

Results flagged for a closer look

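Pgk1 differed between the sexes in its response to the loss of Siah2 by the test of the difference itself. The female change minus the male change was 2.16 on the log2 scale (SE 0.35, edgeR adjusted p = 0.0460, DESeq2 adjusted p = 2.70e-05). With 1 mouse left out the difference stayed between 1.89 and 2.32, but its adjusted p ranged from 0.00423 to 0.146 and it passed in 3 of 12 such fits.

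Pfkfb3 lay apart between genotypes in opposite directions in the sexes. It was at 12.5, 13.1 and 16.2 CPM in WT females and 10.1, 8.8 and 7.7 CPM in KO females, and at 17.4, 29.0 and 34.5 CPM in WT males and 51.7, 39.5 and 68.1 CPM in KO males. The female change minus the male change was -1.56 (SE 0.40, edgeR adjusted p = 0.102, DESeq2 adjusted p = 0.0315), so it did not pass the main test, and it passed in 1 of 12 fits with a mouse left out.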

How the results depend on the processing

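Log2 fold changes and counts were recomputed, where a gene passed that setting's filter, with DESeq2, limma-voom, limma-voom with quality weights, RLE size factors, every gene with 1 count kept (no filter), 10 counts required in every library, thinning to the smallest total and 1 fit of 4 groups, which the main fit of the difference of the sexes already is. Siah1b could not be tested with 10 counts in every library or thinned, nor by DESeq2 in females and for the difference. Sex was added as a term where the sexes were combined, and mice were left out in turn. After the data were seen, DESeq2 without WT female 1091 and library sizes kept at the full total were added. The last was the first fit made: in edgeR it called 22 genes for the difference of the sexes where the main fit called 25, and gave 0, 0, 1, 130 and 1044 in the other comparisons, as the main fit did. No paired analysis was possible because the groups share no mouse numbers.

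Members called in females numbered 0 in the main fit. Egln1 alone was called with DESeq2 (303 of 8185 genes called), no filter (484 of 17177) and 1 fit of 4 groups (427 of 9806). Egln1 and Egln2 were called with quality weights (1058 of 9465 genes) and with DESeq2 without 1091 (828 of 6795). With a mouse left out 0 to 2 were called, the 2 being Egln1 and Egln2 without 1091 (936 of 9709 genes). For the difference of the sexes 1 member was called with quality weights, Egln3 (558 of 9806 genes), and 1 with DESeq2 without 1091, Egln2 (647 of 6752). With a mouse left out the number was 0 to 1, the 1 being Egln2 without 1091 (522 of 10127 genes). For WT females against WT males 1 member was called with quality weights, Hif1an (802 of 9335 genes), and 2 with DESeq2 without 1091, Egln2 and Hif1an (728 of 6992). With a mouse left out the number was 0 to 1, the 1 being Hif1an without 1091 (740 of 9576 genes). For KO females against KO males 0 members were called with DESeq2 (884 of 8920 genes) and 1 fit of 4 groups (352 of 9806). The 2 called with quality weights were Egln3 and Vhl (1215 of 9102 genes). With a mouse left out the number was 0 to 1. Egln3 was called without KO female 1104 (562 of 9418 genes) or KO male 1075 (750 of 9517), and Vhl without KO female 1105 (1056 of 9428). In males and in both sexes combined the number of members called stayed at 0 under every alternative run.

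Over all genes, calls in females went from 0 to 303 (DESeq2), 828 (DESeq2 without 1091), 1058 (quality weights), 484 (no filter) and 427 (1 fit of 4 groups), and to 0 to 936 with a mouse left out, 936 being without 1091. In males they were 6 (DESeq2), 29 (no filter) and 0 to 3, and in both sexes 0 (limma-voom, quality weights and thinning) and 0 to 1. For the difference of the sexes they were 260 (DESeq2), 647 (DESeq2 without 1091), 558 (quality weights), 325 (no filter) and 0 to 522. For WT females against WT males they were 338, 728, 802 and 536 in the same order, 50 with 10 counts in every library, 505 in 1 fit of 4 groups and 43 to 740, and for KO females against KO males 352 in 1 fit of 4 groups and 486 to 1056.

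Of the log2 fold changes of the members, 23 changed sign under some alternative, and none of these had a main value above 0.42 in size or an unadjusted p under 0.447. Siah1b in females went to -0.23 and -0.26 (limma-voom, plain and weighted), Hif1a in females to -0.10 (DESeq2 without 1091) and -0.15 (weights), and Siah1a in KO females against KO males to -0.033 (weights). Epas1 in males went to 0.00975 (DESeq2), 0.00561 (10 counts in every library), 0.00710 (weights), 0.0112 (1 fit of 4 groups), 0.00281 (RLE), 0.025 (no filter) and 0.053 (thinned). With both sexes Siah1a went to 0.0180 (limma-voom), 0.0173 (1 fit of 4 groups) and 0.0159 (a term for sex), Egln2 to 0.28 (DESeq2 without 1091), 0.053 (limma-voom) and 0.19 (weights), and Vhl to 0.023 (thinned). The difference of the sexes for Hif1a went to 0.00730 (thinned). In WT females against WT males Egln2 went to -0.67 (DESeq2 without 1091), -0.057 (limma-voom) and -0.56 (weights), and Hif1a to -0.000769 (DESeq2) and -0.054 (thinned).

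With a mouse left out the ranges that crossed 0 were, in females, -0.52 to 0.40 (Siah1b), -0.26 to 0.89 (Egln2), -0.11 to 0.20 (Hif1a) and -0.062 to 0.79 (Hif1an). In males they were -0.031 to 0.67 (Siah1b), -0.0082 to 0.28 (Egln1), -0.13 to 0.13 (Epas1), -0.18 to 0.17 (Vhl) and -0.063 to 0.16 (Hif1an). With both sexes they were -0.13 to 0.13 (Siah1a), -0.12 to 0.28 (Siah1b), -0.16 to 0.27 (Egln2), -0.21 to 0.081 (Vhl) and -0.022 to 0.23 (Hif1an). For the difference of the sexes they were -0.90 to 0.015 (Siah1b), -0.075 to 1.06 (Egln2) and -0.083 to 0.77 (Hif1an). Between WT groups they were -0.65 to 0.47 (Egln2), -0.10 to 0.22 (Hif1a) and -0.40 to 0.062 (Epas1), and between KO groups -0.084 to 0.32 (Siah1a) and -0.15 to 0.76 (Siah1b). The causes were not tested. Egln1 and Egln3 in females kept their directions, at 0.86 to 1.31 and -1.26 to -0.81.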
